A study of Mesocricetus auratus with 6 samples.

Results

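Deoxyribonucleotides, the building blocks of DNA, are supplied by a small set of enzymes, and 9 of their genes are described here: Rrm1, Rrm2, Rrm2b, Tyms, Tk1, Dtymk, Dck, Dut and Dctd. They were chosen by name, with earlier results of these data known, and all 9 were found among the 16078 genes listed in each library. The libraries came from BHK21 cells, a fibroblast-like line started from hamster kidney (Mesocricetus auratus, aged 1 day in the labels). In 3 libraries (vector 1 to 3) the cells had received the empty plasmid pCMV-Myc, and in the other 3 (STYK1 1 to 3) they had received STYK1/NOK, a membrane protein with a kinase-like domain that the series calls an oncogene. RNA was harvested 48 after transfection, a time for which the labels give no unit, and the transfected share of the cells is not given. Whether the 3 libraries of a group stem from separate cultures is not stated, and p-values cover the spread between these libraries alone, which may be technical.

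Ribonucleotide reductase removes an oxygen from ribonucleotides and makes the deoxy forms. Its large subunit is encoded by Rrm1, and its small subunit by either Rrm2, which dividing cells make around S phase, or Rrm2b, which also serves non-dividing cells. Thymidylate needs a route of its own: deaminases and the dUTPase make dUMP, thymidylate synthase turns dUMP into dTMP, and kinases carry dTMP and salvaged nucleosides onward. In growing cells such as cultured fibroblasts, transcripts of Rrm1, Rrm2, Tyms, Tk1, Dtymk and Dut are known to peak around S phase. These 6 are called the S-phase linked members below, and Rrm2b, Dck and Dctd the other members.

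Values are FPKM, fragment counts scaled by transcript length and by the mapped fragments of the library. Levels of different genes are comparable per length only as far as the lengths and mapping used, which are not given, hold for each gene. The number of reads per library is not known. The commonest ratio of low values (0.8 to 6 FPKM) between each library and STYK1 1 was between 0.979 and 1.03. FPKM is already scaled by mapped fragments, so such ratios can lie near 1 at unlike depths, and equal depth is not shown. Vector 1 stood apart: its Pearson r with the other libraries, over 11464 genes on log2(FPKM + 1), was 0.963 to 0.976, against 0.988 to 0.993 among the other 5. Its FPKM values also summed to 619840, against 528160 to 557946 in the others. The differences of the 9 members and the medians of the gene lists are therefore also given without it, and those of other genes where it changed them by over 1.5 times. Identical values above 0 made up at most 3.03% of genes in any pair of libraries, so no library was a copy of another. Such a check cannot tell separate cultures from repeat preparations of the same RNA. The hamster gene Styk1 was listed at 1.5 to 1.89 FPKM for vector and 2.04 to 2.46 FPKM for STYK1, and the species of the transfected sequence is not stated. Of 11 fibroblast markers found, Vim (3650 to 4141 FPKM), Fn1, Pdgfra, Pdgfrb and Sparc were well above 1 FPKM, while Col1a2, Col3a1, Thy1 and Lum stayed under 1 FPKM in every library and Col1a1 did not exceed 1.02 FPKM. Dcn was between them at 3.51 to 6.79 FPKM. Of 8 kidney epithelial markers, 6 were under 1 FPKM in every library, while Aqp1 was at 1.63 to 3.49 FPKM and Pax8 at 0.45 to 1.12 FPKM. The sum over all 8 was 3.0 to 3.29 FPKM for vector and 2.35 to 4.96 FPKM for STYK1. Of 6 immune markers, Ptprc, Adgre1, Cd3e and Itgam were under 1 FPKM throughout, whereas Csf1r was at 2.91 to 3.70 FPKM and Cd68 at 279 to 351 FPKM. Of 4 endothelial markers, Cdh5 was at 4.45 to 9.11 FPKM and the other 3 were under 1 FPKM throughout.

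The 9 genes fell into a high and a low class. Averaged over the 6 libraries, Dut was at 50.8 FPKM, Dtymk at 40.7 FPKM, Rrm1 at 36.45 FPKM, Rrm2 at 33.2 FPKM, Tyms at 32.9 FPKM and Tk1 at 26.2 FPKM. Neighbours in this order had overlapping ranges, and Rrm2 lay above Tyms in 3 of 6 libraries. The other members followed at 3.81 FPKM for Dctd, 2.997 FPKM for Rrm2b and 1.76 FPKM for Dck. Tk1 was above Dctd in 6 of 6 libraries, with no overlap of their ranges, and Rrm2b was likewise above Dck. Dctd and Rrm2b had overlapping ranges, although Dctd was the higher of the pair in 6 of 6 libraries.

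In no member did the STYK1 libraries separate from the vector libraries. The groups overlapped for 9 of 9 members, while over all tested genes 23.1% had groups that did not overlap. No member passed the test of STYK1 against vector (limma-trend on log2(FPKM + 1), Benjamini-Hochberg adjusted p between 0.474 and 0.928), and 0 of 11464 genes (0%) did. At an unadjusted p under 0.05 there were 0 members and 9.84% of all genes. Array quality weights called 24 genes, and none of the 9 members was among them. At an unadjusted p under 0.05, 3 members (Rrm1, Rrm2 and Dck) were higher without vector 3, beside 7.89% of all genes, and Rrm1 alone was higher without STYK1 2, beside 1.81%, and with array quality weights, beside 10.5%. What differed was the level between libraries of the same group: vector 1 was the lowest library for 8 of 9 members, against 36.5% of all tested genes. Vector 1 was also the highest library for 37.2% of all tested genes. In bulk RNA, fewer cells in S phase, less of a transcript per cell and a technical difference of a library cannot be told apart.

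Rrm1 (NCBI Gene ID 101826102), which carries the catalytic and the regulatory sites of the reductase, was at 21.3, 33.9 and 39.05 FPKM across vector 1 to 3. Across STYK1 1 to 3 it was at 45.0, 30.9 and 48.5 FPKM. STYK1 1 and STYK1 3 lay above every vector library, but STYK1 2 lay below vector 2 and vector 3. The means were 31.4 ± 9.135 FPKM for vector and 41.5 ± 9.32 FPKM for STYK1 (SD, n = 3 each), 1.32-fold higher in STYK1. The log2 difference was 0.41 ± 0.24 (SE; 95% interval -0.14 to 0.95; limma-trend adjusted p = 0.477). Without vector 1 it was 0.16 (95% interval -0.24 to 0.56).

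Rrm2 (Gene ID 101833872), the small subunit that holds the tyrosyl radical and is degraded as cells leave mitosis, was at 12.6, 32.4 and 40.7 FPKM across vector 1 to 3. It was at 40.8, 28.3 and 44.5 FPKM across STYK1 1 to 3. Vector 1 was far below the rest, and STYK1 2 was the next lowest. From the lowest to the highest library Rrm2 spanned 3.53-fold, the 98th largest log2 range among 11464 tested genes. The group means were 28.6 ± 14.4 and 37.9 ± 8.51 FPKM (vector and STYK1, SD, n = 3 each), a log2 difference of 0.52 ± 0.38 (SE; 95% interval -0.35 to 1.39; limma-trend adjusted p = 0.529). Without vector 1 the difference was 0.04 (95% interval -0.38 to 0.46), since vector 2 and 3 averaged 36.5 FPKM.

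Rrm2b (Gene ID 101842154), the alternative small subunit, was nearly level, at 2.71, 2.76 and 2.92 FPKM for vector and 2.88, 3.64 and 3.07 FPKM across STYK1 1 to 3. Its highest library was STYK1 2, in which Rrm2 was low. The log2 difference was 0.14 ± 0.13 (SE; 95% interval -0.17 to 0.45; limma-trend adjusted p = 0.615), and 0.12 without vector 1.

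**Figure D1:**
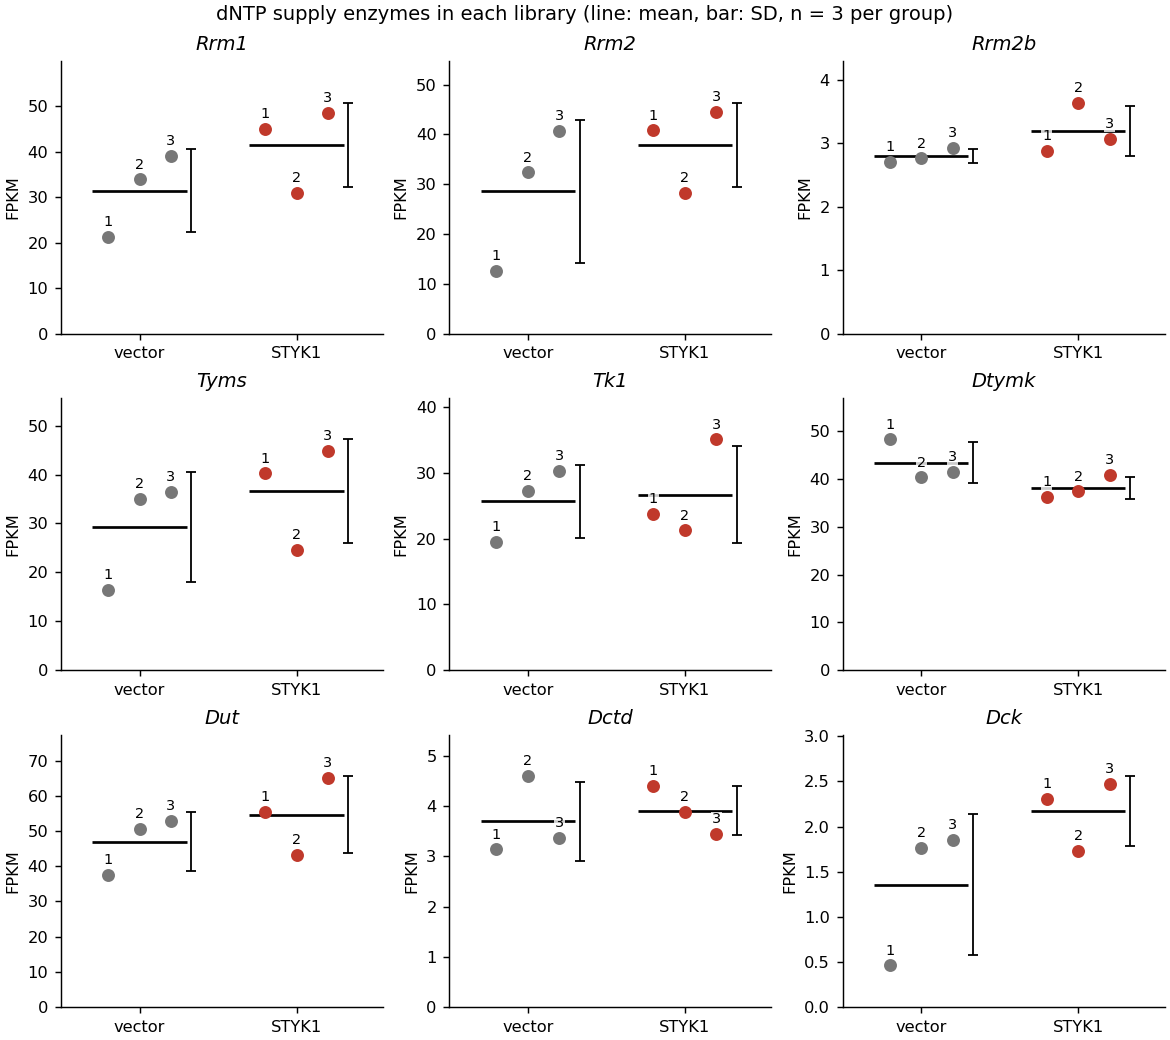
FPKM (y axes, from 0) of the 9 genes in each vector (grey) and STYK1 (red) library, numbered by replicate, with the group mean as a line and the SD as a bar (n = 3 each). Vector 1 is the lowest point in 8 of 9 panels and STYK1 2 the lowest STYK1 point in 6 of the same panels, while Dtymk has its highest value in vector 1.

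Because both small-subunit transcripts were read in the same library, their proportions do not depend on how libraries were scaled. Rrm2 made up 82.3%, 92.15% and 93.3% of the summed Rrm2 and Rrm2b FPKM across vector 1 to 3, and 93.4%, 88.6% and 93.55% across STYK1 1 to 3. Vector 1 was again the lowest and STYK1 2 the next. The group means were 89.3% ± 6.03 and 91.9% ± 2.82 (vector and STYK1, SD, n = 3 each; two-sided exact permutation p = 0.5, where 0.1 is the smallest value that 3 against 3 can give). Without vector 1 the sign turned, with STYK1 lower by 0.867 percentage points. Rrm1 per unit of small subunit was 1.39, 0.965 and 0.896 across vector 1 to 3 and 1.03, 0.968 and 1.02 across STYK1 1 to 3. The 3 STYK1 libraries and vector 2 and 3 thus lay between 0.896 and 1.03, and vector 1 above them. The two-sided exact permutation test gave p = 1, and STYK1 minus vector changed from -0.0781 to 0.0748 without vector 1.

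**Figure D2:**
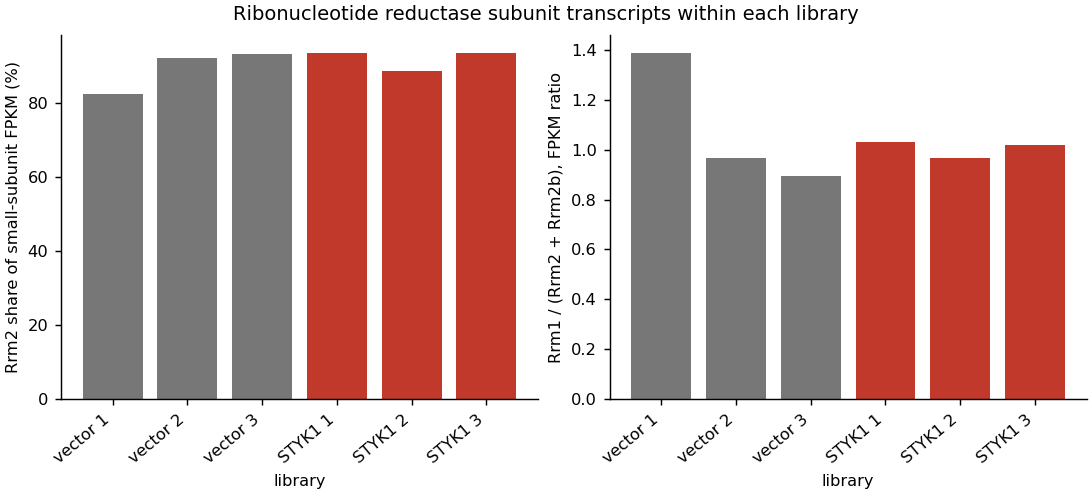
Left, the share of Rrm2 in the summed Rrm2 and Rrm2b FPKM (percent) in each library, and right, Rrm1 FPKM divided by that sum (ratio), each bar 1 library, grey for vector and red for STYK1. Vector 1 has the lowest share, 82.3%, and the highest ratio, 1.39.

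Of the thymidylate genes, Tyms moved most between libraries. Tyms (Gene ID 101829990), thymidylate synthase, was at 16.4, 35.0 and 36.4 FPKM across vector 1 to 3 and at 40.2, 24.7 and 44.9 FPKM across STYK1 1 to 3. Vector 1 and then STYK1 2 were lowest, and the highest library was 2.74-fold above the lowest. The log2 difference was 0.35 ± 0.32 (SE; 95% interval -0.38 to 1.08; limma-trend adjusted p = 0.599), and -0.0073 without vector 1 (95% interval -0.56 to 0.55). Dut (Gene ID 101827041), the dUTPase that yields dUMP and keeps uracil out of DNA, was at 37.45, 50.65 and 52.9 FPKM for vector and 55.6, 43.25 and 65.2 FPKM across STYK1 1 to 3. The same 2 libraries were lowest, over a smaller span of 1.74-fold. Its log2 difference was 0.21 ± 0.18 (SE; 95% interval -0.19 to 0.61; limma-trend adjusted p = 0.574), and 0.06 without vector 1.

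Dctd (Gene ID 101828081), the deaminase that turns dCMP into dUMP, was at 3.14, 4.60 and 3.36 FPKM across vector 1 to 3 and at 4.41, 3.89 and 3.44 FPKM across STYK1 1 to 3. Here vector 2 and STYK1 1 were high, a different order from that of Tyms and Dut. The log2 difference was 0.07 ± 0.16 (SE; 95% interval -0.30 to 0.44; limma-trend adjusted p = 0.839), with the other sign, -0.013, without vector 1.

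Tk1 (Gene ID 101843393), the cytosolic thymidine kinase of salvage, was at 19.5, 27.2 and 30.2 FPKM across vector 1 to 3. Across STYK1 1 to 3 it was at 23.7, 21.2 and 35.1 FPKM. Vector 1 and STYK1 2 were lowest again, but STYK1 1, high for Tyms and Rrm2, lay below vector 2 and vector 3. The log2 difference was 0.05 ± 0.21 (SE; 95% interval -0.44 to 0.53; limma-trend adjusted p = 0.928). It was -0.13 without vector 1 and -0.16 without STYK1 3. Tyms per Tk1 FPKM was 1.70 in STYK1 1 and between 0.840 and 1.28 in the other 5 libraries.

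Dtymk (Gene ID 101832039), the kinase that makes dTDP from dTMP of either route, differed from the other members in where vector 1 lay. It was at 48.3, 40.3 and 41.5 FPKM across vector 1 to 3 and at 36.2, 37.4 and 40.8 FPKM across STYK1 1 to 3. Vector 1, the lowest library for the other 8 members, was its highest, as it was for 37.2% of all tested genes. The means were 43.4 ± 4.30 FPKM for vector and 38.1 ± 2.38 FPKM for STYK1 (SD, n = 3 each), 1.14-fold higher in vector. The log2 difference was -0.18 ± 0.10 (SE; 95% interval -0.41 to 0.05; limma-trend adjusted p = 0.474), and -0.10 without vector 1. Tyms per Dtymk FPKM was 0.339 in vector 1, between 0.660 and 0.877 in vector 2, vector 3 and STYK1 2, and 1.11 and 1.10 in STYK1 1 and STYK1 3.

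Dck (Gene ID 101838564), which phosphorylates deoxycytidine and purine deoxynucleosides taken up by the cell, was at 0.46, 1.76 and 1.85 FPKM across vector 1 to 3. It was at 2.31, 1.73 and 2.47 FPKM across STYK1 1 to 3. The order of the libraries was that of Tyms, with vector 1 far below the rest. The highest library was 5.37-fold above the lowest, at levels where the unknown depth leaves the counting error unknown. On log2(FPKM + 1), a scale that understates change at such levels, the difference was 0.48 ± 0.27 (SE; 95% interval -0.13 to 1.10; limma-trend adjusted p = 0.474). It was 0.17 without vector 1 (95% interval -0.20 to 0.54) and 0.83 with a pseudocount of 0.1.

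**Figure D3:**
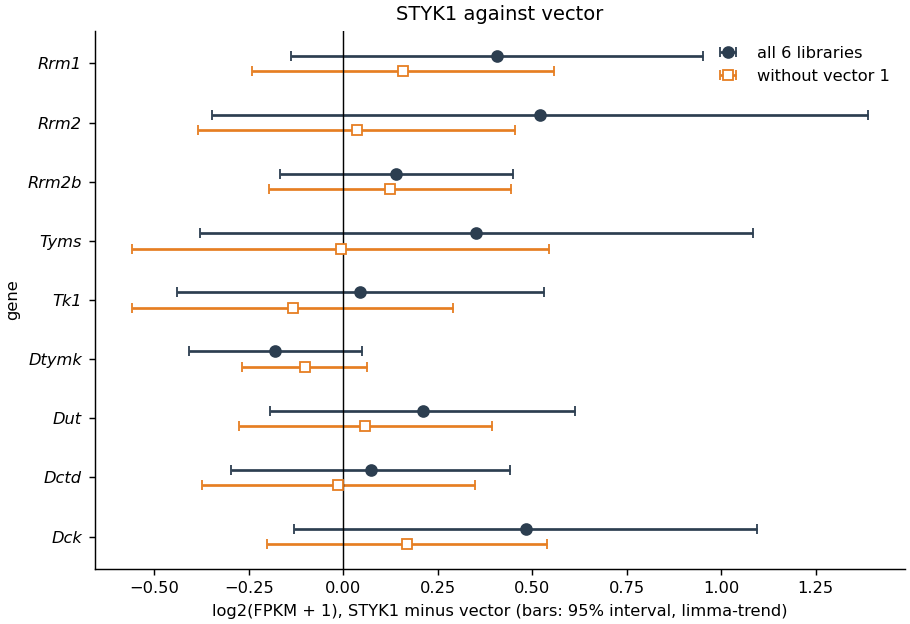
Log2(FPKM + 1) in STYK1 minus vector libraries (x axis) for each gene (y axis), with 95% intervals from limma-trend, over all 6 libraries (filled circles) and without vector 1 (open squares). All intervals cross 0, and the estimate of Rrm2 moves from 0.52 to 0.04.

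Averaged over the 6 S-phase linked members, the level relative to the 6-library mean was -0.56, 0.04 and 0.18 across vector 1 to 3 and 0.16, -0.20 and 0.38 across STYK1 1 to 3 (log2 units). The group means were -0.11 ± 0.39 and 0.11 ± 0.30 (SD, n = 3 each), a difference of 0.23, and of 0.0015 without vector 1. The spread within each group was thus larger than the difference between the groups. Vector 1 was the lowest of its group and STYK1 2 the lowest of its group for 6 of 9 members (Rrm1, Rrm2, Tyms, Tk1, Dck and Dut), against 17.8% of all tested genes.

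How far the members moved with replication genes was measured against the mean level of 49 genes of DNA replication and G1/S, such as the MCM helicase and DNA polymerase subunits, with no member among them. That list lay at -0.27, 0.0049 and 0.04 across vector 1 to 3 and at 0.12, -0.06 and 0.16 across STYK1 1 to 3 relative to its 6-library mean (log2 units). Its genes did not all move alike. Vector 1 was the lowest library for 29 of the 49 and the highest for 2, against 36.5% and 37.2% of all tested genes. Vector 1 and STYK1 2 were each the lowest of their group for 27 of the 49, against 17.8% of all tested genes. For Rrm1, Rrm2, Tyms, Dck and Dut, the 6 libraries stood in exactly the order of this list, from vector 1 through STYK1 2, vector 2, vector 3 and STYK1 1 to STYK1 3. Some steps were small: Dck was at 1.73 FPKM in STYK1 2 and 1.76 FPKM in vector 2. Rrm2 was at 40.66 FPKM in vector 3 and 40.83 FPKM in STYK1 1. Of all tested genes 1.10% had this order, and 5 of the 49 list genes did. The spans differed: from vector 1 to STYK1 3 the list mean differed by 0.43, Dut by 0.78, Rrm1 by 1.15, Dck by 1.25, Tyms by 1.40 and Rrm2 by 1.74 log2 units. A mean over many genes can span less than its genes, so these spans were not compared by a test.

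Over 6 libraries, Pearson's r with the list was 0.996 for Rrm1, 0.972 for Rrm2, 0.9845 for Tyms, 0.966 for Dck and 0.965 for Dut. For each of these 5 the exact two-sided permutation p was 0.00139, the smallest that 720 pairings can give, with a Benjamini-Hochberg adjusted p of 0.0025 over the 9 members. Over all tested genes, 1.06% reached this p with r above 0, and 2.06% with either sign. Spearman's rho was 1 for all 5 (exact permutation p = 0.00278, adjusted p = 0.005). With the 2 libraries farthest from the list's median left out (vector 1 and STYK1 3), r was 0.987, 0.908, 0.921, 0.911 and 0.944 in the same order of genes. With 4 libraries the smallest exact permutation p is 0.0417, and no gene passed after adjustment. Without vector 1 alone, r was between 0.936 and 0.993 for the 5 genes. Members and list were measured in the same libraries and share their scaling, and the labels do not show that the libraries are independent. Both were also chosen with earlier results of these data known, a choice that the p-values do not allow for.

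For the other 4 members the relation did not pass. Tk1 had r = 0.782 and rho = 0.829 (exact permutation p = 0.0597 and 0.0583, adjusted p = 0.0896 and 0.0875), and r = 0.302 without the 2 farthest libraries. Without STYK1 1, r for Tk1 was 0.937 with an adjusted exact permutation p of 0.015. Dtymk, counted here among the S-phase linked members, had r = -0.695 and rho = -0.314 (exact permutation p = 0.144 and 0.564, adjusted p = 0.186 and 0.634), and r = 0.0982 without vector 1. Dctd had r = 0.394 and rho = 0.257 (exact permutation p = 0.4625 and 0.658, adjusted p = 0.520 and 0.658). Rrm2b had r = 0.136 and rho = 0.371 (exact permutation p = 0.783 and 0.497, adjusted p = 0.783 and 0.634). Without the 2 farthest libraries r was -0.212 for Dtymk, 0.1835 for Dctd and -0.69 for Rrm2b. Without vector 1 alone the signs of Dctd (-0.21) and Rrm2b (-0.49) turned as well. Dck, not counted as S-phase linked, was thus among the 5 that moved with the list, at levels where the counting error is unknown.

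**Figure D4:**
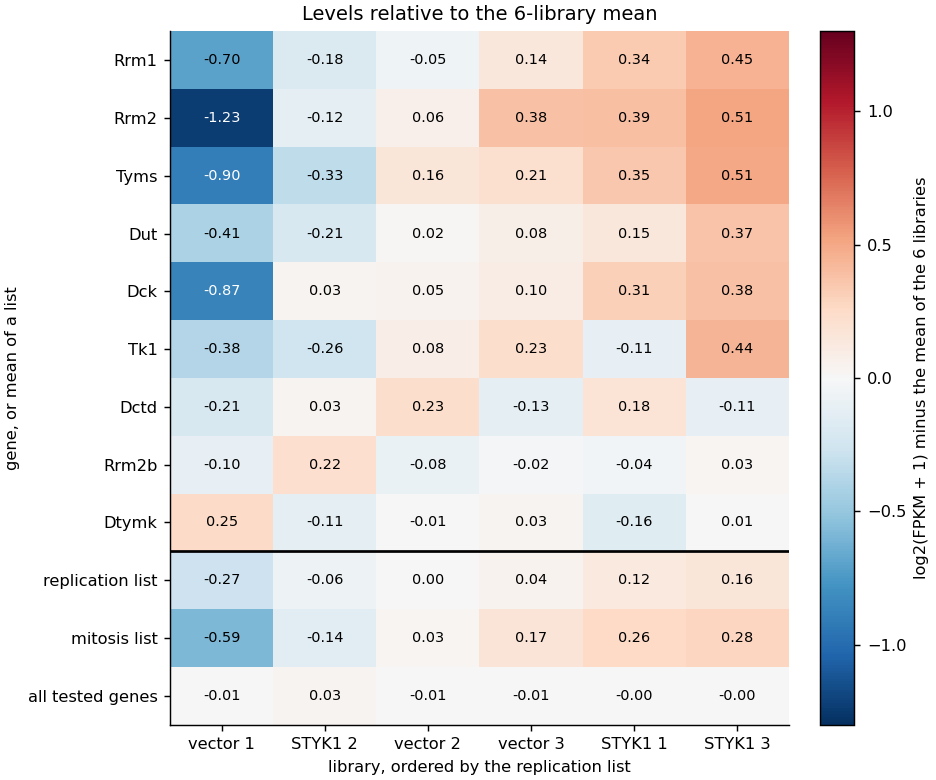
Log2(FPKM + 1) minus the mean of the 6 libraries (colour and printed value) for the 9 genes, for the means of the replication and mitosis lists and for all tested genes (rows), with libraries ordered by the replication list (columns). Rrm1, Rrm2, Tyms, Dut and Dck increase at every step from left to right, while Tk1, Dctd, Rrm2b and Dtymk do not, and the mean of all tested genes stays between -0.01 and 0.03.

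The 23 tested genes of the mitosis list, measured for comparison, lay at -0.59, 0.03 and 0.17 across vector 1 to 3 and at 0.26, -0.14 and 0.28 across STYK1 1 to 3, the library order of the replication list. For 23 of 23, vector 1 was the lowest vector library and STYK1 2 the lowest STYK1 library. The genes whose profile over the 6 libraries was most like the mean of the S-phase linked members, among 8199 genes with a symbol and a mean of at least 5 FPKM, were Kif20a (Pearson r = 0.999), Snx7 (0.997), Tmed10 (0.996), Sumf1 (0.996) and Cenpw (0.995). Their r without vector 1 was between 0.990 and 0.997. These r values describe 6 libraries that share their processing, and 5.79% of the 8199 genes had an r over 0.9. Kif20a was at 27.7, 39.8 and 43.0 FPKM across vector 1 to 3 and at 41.85, 33.6 and 47.9 FPKM across STYK1 1 to 3.

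The genes around the 9 enzymes were taken from fixed lists, and none passed the test of STYK1 against vector (limma-trend, 0 at an adjusted p under 0.05 in each list). Counts at an unadjusted p under 0.05 are given below, beside 4.95% higher and 4.88% lower among all genes, whose median log2 difference was 0.01. Of 49 replication genes, 5 were higher and 0 lower, with a median of 0.12 and of 0.03 without vector 1. Ccne2, cyclin E2, was at 2.71 ± 0.108 and 4.45 ± 0.446 FPKM (vector and STYK1, SD, n = 3 each), and the clamp loader gene Rfc1 was at 15.1 ± 1.20 and 18.7 ± 0.938 FPKM. Cdc6, which loads the MCM helicase, was at 1.88 ± 0.815 and 3.35 ± 0.600 FPKM. These were the 3 of smallest p, and without vector 1 their log2 differences were 0.53, 0.24 and 0.42. The groups did not overlap for 7 of the 49 genes, these 3 among them, against 23.1% of all tested genes. Of 23 mitosis genes, 2 were higher (Cenpe and Hmmr) and 0 lower, with a median of 0.30, and of 0.02 without vector 1. The log2 difference of Hmmr was 0.50, and 0.25 without vector 1.

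Folate enzymes hand the carbon to thymidylate synthase, and of 14 tested, 0 were higher and 0 lower, with a median of 0.0015, and of -0.042 without vector 1. Mtr, Mthfd2 and Slc19a1 had the smallest p in this list, with log2 differences of 0.40, -0.14 and -0.15. That of Mtr was 0.10 without vector 1.

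Among 13 tested genes of nucleotide breakdown and pool cleaning, 1 was higher and 2 were lower, with a median of 0.03, and of 0.07 without vector 1. Dnph1, a hydrolase of deoxynucleoside monophosphates, was at 22.4, 15.9 and 16.0 FPKM across vector 1 to 3 and at 11.4, 13.8 and 10.55 FPKM across STYK1 1 to 3. Nt5c, a cytosolic deoxyribonucleotidase, was at 62.4, 35.7 and 39.5 FPKM and at 25.5, 33.8 and 28.85 FPKM in the same order. The vector libraries of both lay above the STYK1 libraries, also among vector 2 and 3. Of these 13 genes, the groups did not overlap for 1 higher and 2 lower in STYK1, against 23.1% of all tested genes. The log2 differences of Dnph1 and Nt5c were -0.55 and -0.59, and -0.40 and -0.35 without vector 1 (limma-trend adjusted p = 0.469 for both over all libraries). Dctpp1, which breaks down dCTP, was at 2.66 ± 0.425 and 3.79 ± 0.428 FPKM (vector and STYK1, SD, n = 3 each). Samhd1, the dNTP hydrolase, was at 6.22 to 10.4 FPKM for vector and 8.58 to 10.2 FPKM for STYK1, so that its groups overlapped.

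Of 10 nucleotide kinases, 0 were higher and 1 was lower, with a median of -0.08 with and without vector 1. Guk1, guanylate kinase, was the lower gene, at 60.1 ± 8.66 and 49.2 ± 4.08 FPKM (vector and STYK1, SD, n = 3 each), with a log2 difference of -0.28, and of -0.17 without vector 1. Among 6 genes of mitochondrial salvage and nucleoside transport, 1 was higher and 0 lower, with a median of -0.17 and of 0.02 without vector 1. The higher gene was Slc25a36, a mitochondrial pyrimidine nucleotide carrier, at 6.95 ± 2.18 and 10.4 ± 1.82 FPKM, with a log2 difference of 0.55, and of 0.30 without vector 1. Tk2 and Dguok, the mitochondrial deoxynucleoside kinases, were at 15.7 ± 1.63 and 15.3 ± 1.86 FPKM and at 16.2 ± 4.62 and 13.65 ± 2.335 FPKM. Their log2 differences were -0.04 and -0.21, and 0.04 and 0.00026 without vector 1. Of 7 electron donor genes, which reduce ribonucleotide reductase or belong to the same systems, 0 were higher and 1 was lower: the mitochondrial thioredoxin Txn2, at 77.0 ± 3.11 and 66.1 ± 2.15 FPKM. The list's median was -0.08, and -0.01 without vector 1. Of 9 pyrimidine synthesis and uridine salvage genes, 1 was higher (Uprt, at 20.2 ± 5.19 and 26.7 ± 1.27 FPKM) and 0 lower, with a median of -0.0020, and of 0.03 without vector 1. The log2 difference of Uprt was 0.42, and 0.20 without vector 1. Of 14 purine synthesis and salvage genes, 0 were higher and 2 lower, with a median of 0.0060, and of -0.03 without vector 1. The lower genes were Aprt, which salvages adenine, at 342 ± 33.6 and 263.5 ± 14.7 FPKM, and Impdh1, of the step toward guanine nucleotides, at 31.4 ± 1.85 and 26.9 ± 0.830 FPKM.

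**Figure D5:**
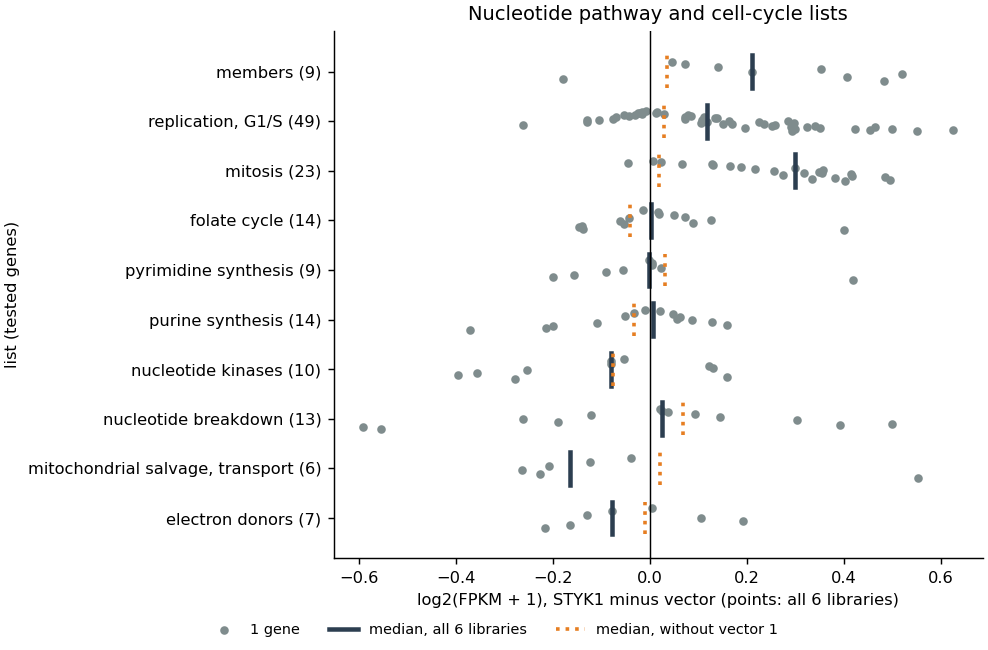
Log2(FPKM + 1) in STYK1 minus vector libraries (x axis) for each tested gene (points) of the fixed lists (y axis, number of genes in brackets), with the list's median over all libraries (solid bar) and without vector 1 (dotted bar). The medians of the members, the replication list and the mitosis list move from 0.21, 0.12 and 0.30 to 0.04, 0.03 and 0.02 without vector 1.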

How the data were processed

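Per the labels' protocols, Trizol RNA (1 ug per library) went into the TruSeq RNA kit. Each library has a deposited file of FPKM with 2 decimals, per the file headers. The submitters' processing notes name Bowtie 0.12.2, mm8 and mm9 without saying what each was used for. The FPKM tool, the annotation, strand use and the handling of reads shared between gene copies were not given in the sources used here, and values of genes with pseudogene copies, close paralogs or overlapping genes are uncertain.

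NCBI Gene IDs were matched to symbols in the RefSeq table of BCM_Maur_2.0, a hamster assembly (15049 of 16078 IDs); no coordinates or sequences were used here. Genes whose mean reached 1 FPKM in either group (11464, with all 9 members, which reached it in both) were tested on log2(FPKM + 1) with limma-trend (limma 3.58.1, R 4.3.3, robust empirical Bayes, no further scaling), with Benjamini-Hochberg adjustment over all tested genes. Ratios within a library were tested by exact permutation over libraries, and correlations over all pairings (numpy 2.4.6, scripts in Python 3.11.15). Gene lists are described by counts and medians. Some listed genes and 1 list are not reported here. The genes named were the members, the 3 genes of smallest p in each list and the 5 genes of most similar profile; others were named after their values were seen. The members, the lists and the alternatives were chosen with earlier results of these data known. The fit was tested on simulated data with independent noise of equal size in all libraries. No simulated library stood apart as vector 1 does, so that test does not cover this feature of the data. The measure of relative depth was the commonest ratio of low values (0.8 to 6 FPKM, bandwidth 0.005), which may reflect the FPKM scaling instead. Absolute depth is unknown, so no counting interval is given. Alternatives covered the pseudocount, the filter, scaling, weights, the replicate number and each library left out.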

Additional observations from a re-analysis of the deposited data

How the results depend on the processing

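No member passed an adjusted p of 0.05 in limma-trend under any alternative run, and the calls of 0 genes changed in some: to 24 genes with array quality weights, and to between 0 and 2 when single libraries were left out (2 without vector 3, STYK1 1 or STYK1 3). Genes at an unadjusted p under 0.05 numbered 1128, 2365 with array quality weights, 626 after centring on the replication list (an alternative added after the data were seen), and 352 to 1709 with 1 library left out. That count was 568 higher and 560 lower, 1263 and 218 with equal FPKM sums, 402 and 762 after median centring, and 66 and 560 after centring on the replication list. The median over all genes, 0.01, became 0.12 with equal sums and -0.13 after centring on the replication list. The filter at 5 FPKM dropped Rrm2b, Dck and Dctd.

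The mean difference of the S-phase linked members was 0.23, and 0.0015 to 0.38 with 1 library left out, lowest without vector 1. It was 0.10 with array quality weights, 0.08 after centring on the replication list and 0.33 with equal sums. Of 14 list medians, 5 took the other sign without vector 1 and 6 with equal sums, the most under any alternative run. The 14 include the list not reported and the cell type marker lists. Among these, the kidney epithelial and endothelial lists had 1 tested gene each. The folate median was -0.042 without vector 1, 0.10 with equal sums and -0.15 after centring on the replication list. With 1 library left out, Tyms ranged from -0.0073 to 0.61, Tk1 from -0.16 to 0.19 and Dctd from -0.013 to 0.21. The sign turned without vector 1 for Tyms (-0.0073), Tk1 (-0.13) and Dctd (-0.013), without STYK1 3 for Tk1 (-0.16), with array quality weights for Tk1 (-0.10) and Dctd (-0.017), and after centring on the replication list for Rrm2b (-0.0074), Tk1 (-0.10) and Dctd (-0.076). Without vector 1, STYK1 minus vector was -0.867 percentage points for the Rrm2 share and 0.0748 for Rrm1 per small subunit; over the 6 libraries left out in turn these ranged from -0.867 to 4.62 and from -0.172 to 0.0748. Of the correlations with the replication list, 5 passed, 5 to 6 with 1 library left out, and 0 without the 2 farthest libraries, where the smallest exact permutation p of 4 libraries is 0.0417. Signs turned for Rrm2b (-0.69 without the 2 farthest, -0.49 without vector 1), Dtymk (0.0982 without vector 1) and Dctd (-0.21 without vector 1), whose ranges with 1 library left out were -0.49 to 0.82, -0.86 to 0.0982 and -0.21 to 0.66. The cause was not tested.

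With the replicate number as a block, 0 genes and 0 members passed, 831 genes were at an unadjusted p under 0.05, and the Rrm2 share differed by 2.60 percentage points (exact sign flips, p = 0.75). Not every pair of the same number deviated together (correlations of deviations over genes -0.27, -0.16 and 0.11 for numbers 1, 2 and 3), and the libraries were not treated as paired.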
